A study of Mus musculus with 4 samples.

Results

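The miR-23/27/24 clusters are a pair of paralogous groups of microRNAs (miRNAs), each made as 1 transcript that carries 3 hairpins. Their members were taken by name, as the 5 guide strands mmu-miR-23a, mmu-miR-27a, mmu-miR-23b, mmu-miR-27b and mmu-miR-24 (mmu- for mouse, left out from here on) out of 611 mouse miRNAs on the array. The a cluster gives miR-23a and miR-27a, the b cluster gives miR-23b and miR-27b, and both give miR-24. All 5 were well above background on every array.

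The cells were mouse neural stem and progenitor cells differentiated from embryonic stem cells and grown as neurospheres, balls of dividing neural cells that float in the medium. Passage 0 gave the primary neurospheres, at day 6 of culture counted from embryoid bodies, and passage 1 the secondary neurospheres, at day 12. At each passage, cells of a line that overexpresses NFIA, a transcription factor that promotes the formation of astrocytes, had been grown in mixed spheres with control cells and were sorted apart by fluorescence. Each of the 4 samples (titled PNs_CT, PNs_NFIA_OE, SNs_CT and SNs_NFIA_OE) was hybridised to 1 array, so no group had a replicate. The titles and the source names disagree on which cells overexpress NFIA, because the source name of each control-titled sample gives the NFIA OE line and that of each NFIA OE-titled sample gives WT. Groups here follow the titles, and every title difference would turn its sign if the source names are right. How many clones the NFIA line holds, and what drives NFIA in it, are not given in the sources used here.

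A miRNA guides the Argonaute protein to target messenger RNAs, mainly through its seed, bases 2 to 8 from the 5′ end, and lowers their translation and stability. Members with the same seed can repress many of the same targets. In the brain the family is known from astrocytes, and outside it from blood vessels and from blood and muscle cells.

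The mature sequences allow miR-27a and miR-27b to be compared base by base. They come from the RefSeq tables of build GRCm38.p6, where 4 of the 5 members matched by name, and capitals mark the seed.
miR-23a: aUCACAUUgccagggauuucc
miR-27a: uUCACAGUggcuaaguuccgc
miR-27b: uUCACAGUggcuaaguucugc
miR-24: uGGCUCAGuucagcaggaacag
miR-27a and miR-27b share their seed and 20 of 21 bases, and differ at 1 position by C19U, counted from the 5′ end with the base of miR-27a first. How well the array's probes separate this pair, or miR-23a from miR-23b, was not tested. miR-23b is the member with no mature entry in the table, so its sequence was not compared with that of miR-23a.

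The a cluster lies on chromosome 8 with Mir23a, Mir27a and Mir24-2 in that order within 404 bp (chr8:84208518-84208921, plus strand), with no other gene spanning it in the gene table. The b cluster lies on chromosome 13 with Mir23b, Mir27b and Mir24-1 within 792 bp (chr13:63300484-63301275, plus strand), inside the bounds of Aopep, an aminopeptidase gene. The miR-24 hairpins show why miR-24 cannot be assigned to a cluster from its own signal, with capitals here marking the mature strand.
Mir24-2: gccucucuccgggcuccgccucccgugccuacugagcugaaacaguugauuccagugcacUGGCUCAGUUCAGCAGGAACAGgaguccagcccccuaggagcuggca
Mir24-1: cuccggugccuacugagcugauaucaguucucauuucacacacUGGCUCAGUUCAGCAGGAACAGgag
Both hairpins hold the same 22-base mature strand. Their partner strands, cut from the other arm and written with a star on this array, differ after base 16, as the capitals mark.
miR-24-1*: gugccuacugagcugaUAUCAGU
miR-24-2*: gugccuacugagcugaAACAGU

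Levels are given as log2 of the intensity over the array's own 75th percentile, taken over the probes detected on all arrays. A value of -1 is therefore 1 log2 unit below that percentile. Probes bind with different strength, so the level of one miRNA is not set against that of another. The percentile itself was 167 intensity units on the primary control-titled array, 261 on the primary NFIA OE-titled one, 443 on the secondary control-titled one and 369 on the secondary NFIA OE-titled one. The arrays detected 186 to 220 mouse miRNAs, and no member spot was saturated (0 on each array). Each member had 2 probes of 10 spots, and technical standard errors (SE) over spots were 0.0076 to 0.050 log2.

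Between passages the a cluster rose and the b cluster did not pass the test. miR-23a, known to repress glutaminase, the enzyme that turns glutamine into glutamate, had a log2 level of -1.46 on the primary control-titled array, -1.12 on the primary NFIA OE-titled one, -0.46 on the secondary control-titled one and -0.55 on the secondary NFIA OE-titled one. Both secondary arrays were thus above both primary ones. The scanner's total signal for miR-23a, before scaling, was 95.2, 183, 485 and 389 units in the same order.

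miR-27a, whose known targets include regulators of fat cell differentiation, had log2 levels of -2.31, -1.83, -0.97 and -1.07 in the same order. Again the secondary arrays lay above the primary ones, with total signals of 308 and 245 units against 47.4 and 101. Signals before scaling also hold each array's brightness, and those of miR-23b, miR-27b and miR-24 were higher on both secondary arrays too. In the same order they were 116, 222.6, 224.5 and 300 units for miR-23b, and 44.4, 88.3, 98.2 and 119 for miR-27b. For miR-24 they were 108, 198, 321 and 323 units. In scaled levels, a separation with both secondary arrays above both primary ones was seen in 15% of the 153 miRNAs detected on all arrays. The reverse was seen in 56.9%.

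miR-23b, which shares its targets in glutamine metabolism with miR-23a, had log2 levels of -1.23 and -0.88 on the primary control-titled and NFIA OE-titled arrays and of -1.64 and -0.97 on the secondary ones. The passages overlapped, and the secondary control-titled array was the lowest. miR-27b, known from the sprouting of blood vessels, had levels of -1.63, -1.23, -1.86 and -1.35 in the same order, again with overlapping passages. It was read by 1 of its 2 probes, since the other had 0 of 10 spots well above background on the primary control-titled array. miR-24, known to repress regulators of the cell cycle, had levels of -1.07, -0.81, -0.87 and -0.62, where the primary NFIA OE-titled array lay above the secondary control-titled one.

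**Figure D1:**
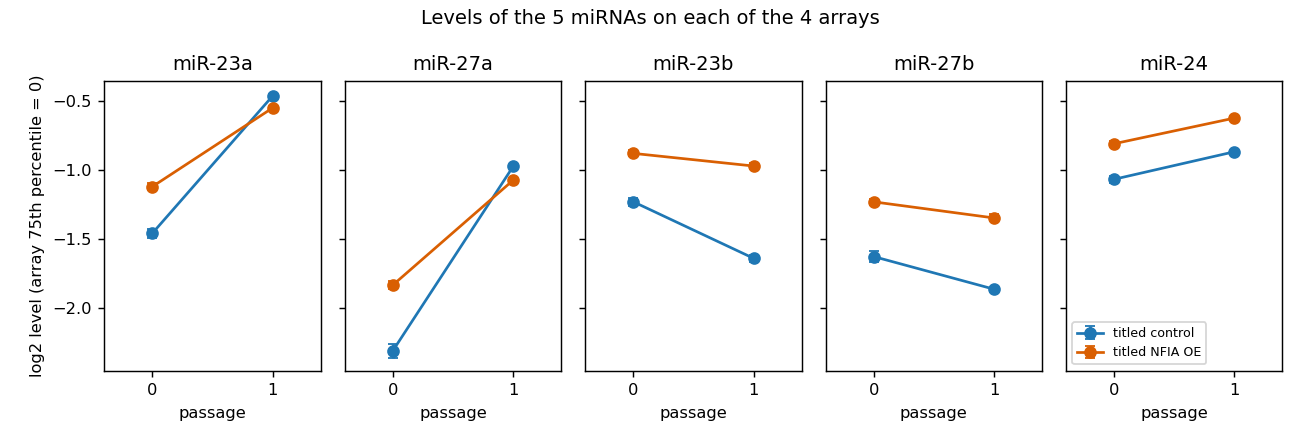
Log2 level of each of the 5 miRNAs (vertical axis, 0 is the array's own 75th percentile) at passage 0 and passage 1 (horizontal axis) on the arrays titled control (blue) and NFIA OE (orange), with bars for the technical SE over spots. Lines of miR-23a and miR-27a climb in both titles and cross, whereas those of miR-23b and miR-27b stay apart by title, with miR-27b at -1.86 on the secondary control-titled array and -1.35 on the secondary NFIA OE-titled one.

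The passage comparison used 1 limma fit over all 4 arrays and all 153 miRNAs, with title as a further term. miR-27a rose by a log2 difference of 1.05 (2.07-fold, SE 0.29, 95% interval 0.47 to 1.63, n = 2 arrays per passage, limma adjusted p = 0.0019). miR-23a rose by 0.78 (1.72-fold, SE 0.29, 95% interval 0.20 to 1.37, limma adjusted p = 0.0213). Both miRNAs were higher at passage 1 in both pairs of arrays. miR-27a stood at 1.34 in the control-titled pair and 0.76 in the NFIA OE-titled pair, and miR-23a at 0.997 and 0.57. At least 2-fold by pair, miR-27a alone was higher in the control-titled pair (10.5% of all miRNAs higher, 26.8% lower) and no member (0 of 5) in the NFIA OE-titled pair (5.23% and 16.3%). miR-23a fell just short of that limit in the control-titled pair, at 1.996-fold. The control-titled pair includes the dimmest array, whose part in these differences was not tested. With normexp background correction both members were at 0.41 (limma adjusted p = 0.114) and neither was called. With no replicate in any group, these p-values do not measure a spread among replicates. They set each difference against how far passage differences departed between the titles, pooled over all 153 miRNAs. Since 1 mixed culture supplied both arrays of a passage, they hold no spread between cultures. A change in the share of cells of a type cannot be told apart from a change in miRNA per cell.

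The other 3 members were not called. miR-23b differed by -0.25 (95% interval -0.83 to 0.33, limma adjusted p = 0.497) and miR-27b by -0.18 (-0.76 to 0.41, limma adjusted p = 0.632). By pair they stood at -0.41 and -0.09 for miR-23b, and at -0.24 and -0.12 for miR-27b, in the control-titled and the NFIA OE-titled pair. miR-24 differed by 0.19 (-0.39 to 0.78, limma adjusted p = 0.609), with 0.20 and 0.19 in these pairs. The intervals of these 3 do not leave out modest changes in either direction.

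In all, 2 of the 5 members were called, both higher. Over all 153 miRNAs 45.8% were called, 13.1% as higher and 32.7% as lower. The members' median difference was 0.19 and that of all miRNAs -0.39. Ranked from the highest difference down, miR-27a was at place 11, miR-23a at 17, miR-24 at 31, miR-27b at 54 and miR-23b at 61 of 153. The a cluster's place among the higher miRNAs is therefore set against a background in which most miRNAs were lower at passage 1.

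How arrays are scaled moves that background, and the median of all miRNAs ran from -0.48 to 0.56 over 11 alternatives (those that keep all 4 arrays). The split of called miRNAs went from 20 higher and 50 lower to 25 and 5 when the percentile was taken over all probes, 39 and 17 with the authors' deposited values, 20 and 1 without scaling and 22 and 39 with median centring. It was 14 and 73 with normexp, 15 and 23 with quantile normalization, 16 and 66 with detection on at least 1 array and 0 and 7 with no filter. Relative to the median miRNA 26 were higher and 27 lower, with 17% and 17.6% called, and miR-27a stood at 1.44 (limma adjusted p = 2.70e-05), miR-23a at 1.17 (0.000674), miR-24 at 0.58 (0.125), miR-27b at 0.21 (0.656) and miR-23b at 0.14 (0.795). miR-23a and miR-27a were higher at passage 1 in 11 of 11 alternatives, 3 of which leave their estimates as they are. The sign of miR-23b turned in 4 of the 11 and that of miR-27b in 6, so no direction is given for the b cluster on its own. miR-24 was above 0 in all 11, from 0.02 to 1.14, and was called with the authors' deposited values (0.84, limma adjusted p = 0.0177). The order of the 5 differences, from miR-27a through miR-23a, miR-24 and miR-27b to miR-23b, cannot change in 5 of the 11, which shift all 5 alike or not at all. It was the same in the other 6, though with normexp miR-27a and miR-23a were both at 0.41.

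**Figure D2:**
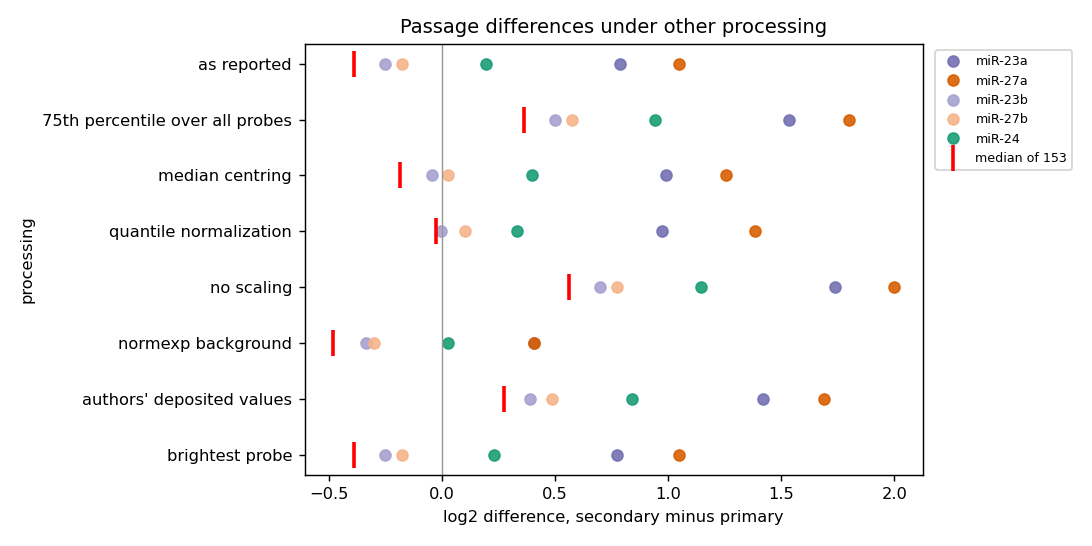
Log2 passage difference (horizontal axis, secondary minus primary) of the 5 miRNAs (dots) and of the median of 153 miRNAs (red bars) as reported and under 7 other ways of processing (vertical axis). The dots slide together, with miR-27a between 0.41 and 2.0.

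A ratio taken within an array cancels any scaling between arrays, so it shows how the clusters moved against each other. The log2 ratio of miR-23a to miR-23b was -0.23 on the primary control-titled array, -0.24 on the primary NFIA OE-titled one, and 1.18 and 0.42 on their secondary counterparts. That of miR-27a to miR-27b was -0.68 and -0.60, and then 0.89 and 0.27. Only the movement of such a ratio can be read, since its height also holds the strength of both probes. Both ratios were higher on both secondary arrays than on either primary one.

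The miR-23 ratio changed by 1.04 log2 (2.05-fold) over both pairs, by 1.41 in the control-titled pair and by 0.66 in the NFIA OE-titled pair. The miR-27 ratio changed by 1.23 (2.34-fold), with 1.57 and 0.88 by pair. With normexp background correction this ratio change was smaller, at 0.71. For each the exact two-sided permutation p was 0.333, the smallest that 2 arrays against 2 can give, so that this permutation test cannot reach 0.05, and no fitted test of a ratio was run. Each probe of miR-23a over each probe of miR-23b gave a change between 1.02 and 1.05. For miR-27 the probes of miR-27a gave 1.23 and 1.22 over the miR-27b probe in use.

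Members of 1 cluster kept closer to each other than to their paralogues. The ratio of miR-23a to miR-27a changed by -0.34 and -0.19 between passages in the control-titled and NFIA OE-titled pairs. That of miR-23b to miR-27b changed by -0.17 and 0.03. Measured as the root mean square distance between levels centred over the 4 arrays, miR-23a lay 0.141 from miR-27a and 0.583 from miR-23b, and miR-27b lay 0.0675 from miR-23b and 0.652 from miR-27a. These distances describe 4 arrays and carry no test.

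miR-24, which both clusters make, moved between them. Its difference of 0.19 lay between the a cluster's median of 0.92 and the b cluster's median of -0.21. The ratio of miR-27a to miR-24 changed by 0.86 and that of miR-27b to miR-24 by -0.37, and both had the same sign in both pairs. For miR-23 the corresponding changes were 0.59 and -0.44. Each of these 4 ratios had an exact permutation p of 0.333.

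**Figure D3:**
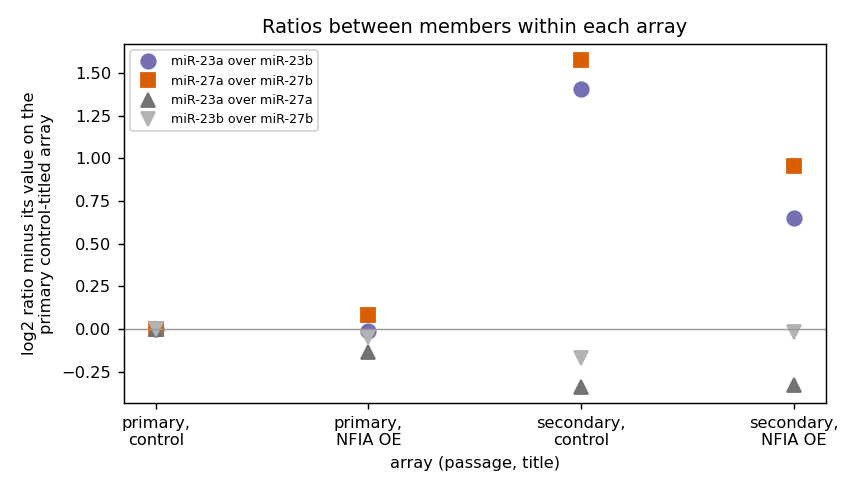
Log2 ratio between members on each array, minus the same ratio on the primary control-titled array (vertical axis), for the 4 arrays (horizontal axis). The ratios between paralogues (circles and squares) climbed on the secondary control-titled array, by 1.41 and 1.57, whereas the ratios within a cluster (triangles) stayed nearer 0.

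The partner strands, which could tell the miR-24 loci apart, did not reach the detection limit. miR-24-1*, miR-24-2*, miR-27a* and miR-27b* were on the array and well above background on 0 of 4 arrays. Total signals of miR-24-2*, from the a cluster, were -1.79 units on the primary control-titled array, -1.98 on the primary NFIA OE-titled one, and 8.41 and 4.71 on their secondary counterparts. Those of miR-24-1*, from the b cluster, were 1.74, 3.76, 4.02 and 5.53 in the same order. Neither strand was detected on any array, so no fold is given for them.

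By title, the question was whether NFIA overexpression goes with other levels, from 2 arrays per title and with passage as a further term. No member was called (0 of 5), while limma called 4 of 153 (2.61%, with 1.31% higher and 1.31% lower), and 0 of the members and 16 of all miRNAs passed an unadjusted p under 0.05. miR-23b was 0.51 log2 higher on the arrays titled NFIA OE (1.42-fold, SE 0.29, 95% interval -0.07 to 1.09, limma adjusted p = 0.688) and miR-27b 0.46 higher (1.37-fold, -0.13 to 1.04, limma adjusted p = 0.785). These were places 9 and 13 from the top of 153. miR-24 differed by 0.25, miR-27a by 0.19 and miR-23a by 0.13 (limma adjusted p = 0.92 for each). The 5 members had a median of 0.25, against -0.00 for all miRNAs.

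By pair, the b cluster and miR-24 were higher on the NFIA OE-titled array at both passages. miR-23b stood at 0.35 at passage 0 and 0.67 at passage 1, miR-27b at 0.40 and 0.52, and miR-24 at 0.26 and 0.24. The a cluster had the same sign at passage 0 alone, with miR-23a at 0.34 and -0.09 and miR-27a at 0.48 and -0.10. No member reached 2-fold by title in either pair, which 5.88% of miRNAs did as higher and 3.27% as lower at passage 0, and 1.96% and 0.654% at passage 1. The positive sign of miR-23b, miR-27b and miR-24 held in 11 of 11 alternatives, and that of miR-23a turned in 2 and that of miR-27a in 1. Leaving the passage term out of the fit cannot change these estimates. Detection on at least 1 array and no filter also left those of miR-23b and miR-24 as they were.

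Seen as ratios, the titles differed at passage 1 and hardly at passage 0. miR-23a over miR-23b differed by -0.01 between titles at passage 0 and by -0.76 at passage 1. miR-27a over miR-27b differed by 0.08 and -0.62. The change over both passages was -0.39 and -0.27, with exact permutation p = 0.667 and 1. The secondary control-titled array thus held the highest a to b ratio of the 4 for both miR-23 and miR-27, and whether the titles differ between passages was not tested, because the additive fit takes that difference as residual.

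**Figure D4:**
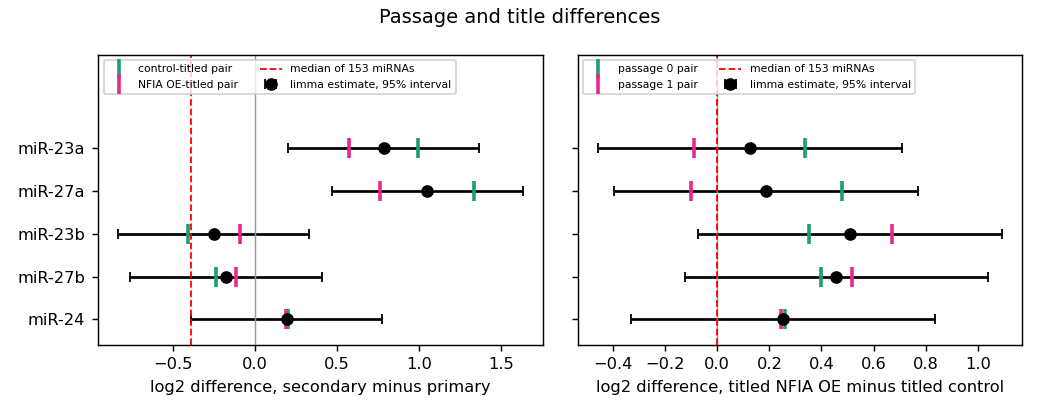
Log2 differences (horizontal axes) of the 5 miRNAs (vertical axis) by passage on the left and by title on the right, with black dots and bars for the limma estimate and its 95% interval, coloured ticks for the single pairs and a red line for the median of 153 miRNAs. On the left the intervals of miR-23a and miR-27a leave out 0, with lower ends of 0.20 and 0.47, and on the right all 5 intervals include 0.

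Cell type markers were read beside these results, and their part in them was not tested. miR-9 and miR-9*, strands of a precursor typical of neural progenitors, were detected on all 4 arrays, which the labelled cell type calls for. The neuronal miR-124 was also detected on all 4 arrays. Of 10 miRNAs of pluripotent cells 8 were detected on the primary control-titled array and 9 on the primary NFIA OE-titled one, against 1 and 6 on their secondary counterparts. Their summed signal was 843 and 1095 units at passage 0 and 114 and 183 units at passage 1, so these signals were lower on the arrays where the a cluster was higher. The summed signal of miR-9, miR-9* and miR-124 went from 596 and 724 units to 5777 and 3120, and was highest on the secondary control-titled array, where the a to b ratios were highest too. miR-9 and miR-9* made up that increase, at log2 passage differences of 1.87 and 2.60. miR-124 was lower at passage 1, with a difference of -1.28 (SE 0.29, limma adjusted p = 0.000133). Its signals before scaling were 198 and 141 units at passage 0 and 172 and 99.8 at passage 1. Over the 11 alternatives that difference ran from -1.28 to -0.33 and was called in 6. Of the oligodendrocyte miRNAs read, miR-219 was detected on all 4 arrays and miR-338-3p on 3. miR-219 differed by -0.44 by passage (limma adjusted p = 0.215) and by -0.74 by title, and was called in neither.

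The miR-23/27/24 clusters are also made in blood vessels and blood cells, so markers of those were read too. The endothelial miR-126-3p and miR-126-5p were well above background on 0 of 4 arrays, with a summed signal of 10.8 to 15.7 units before scaling. The blood miRNAs miR-142-3p, miR-142-5p, miR-223 and miR-451 were likewise at 0 of 4 (7.05 to 9.88 units), as were the muscle miRNAs miR-1, miR-133a, miR-133b and miR-206 (0.591 to 2.72 units). Of 6 mesenchymal miRNAs 2 were detected on each control-titled array and 4 on each NFIA OE-titled one, with sums of 87.4 and 162 against 486 and 741 units. The detected ones were miR-199a-3p, miR-199b*, miR-199a-5p and miR-214, so the sums rest on part of the list. miR-199a-3p and miR-199b*, detected on all 4 arrays, were the 2 miRNAs called higher by title, with a median log2 difference of 2.03. The b cluster was higher on the same arrays but was not called by title. miR-143 and miR-145, which were read as markers of smooth muscle and mesenchymal cells, did not rise well above background (0 of 4 arrays).

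Other astrocyte-enriched families gave a comparison for the role the family is known for. Of miR-26a, miR-26b, miR-29a, miR-29b and miR-29c, 4 were tested and none (0) was called by passage, where 45.8% of all miRNAs were, or by title, where 2.61% were. Their median passage difference was 0.20, with miR-29c at 0.44 (limma adjusted p = 0.215) and miR-26b at -0.21. Relative to the median miRNA, miR-29c was at 0.83 and was called higher (limma adjusted p = 0.0196). miR-29a was well above background on both secondary arrays and on neither primary one, at 49.9 and 37.6 units against 7.35 and 11.5 before scaling.

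miR-128, a neuronal miRNA, was read because its seed overlaps that of miR-27, as the printed seed in capitals shows.
miR-128: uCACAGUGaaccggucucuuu
The motif CACAGU, searched in bases 2 to 8 of the given strand, is in 3 of 1679 mature mouse miRNAs of the table (0.179%), namely miR-27a, miR-27b and miR-128. miR-128 differed by -0.26 by passage and -0.35 by title, with neither called (limma adjusted p = 0.495 and 0.89). Of its 2 probes, 1 was detected on all arrays.

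Patterns over the arrays were compared with those of the other miRNAs, taking the 3 nearest by root mean square distance of centred levels. Nearest to miR-23a were miR-125b-5p (0.116), miR-129-3p (0.170) and miR-21 (0.175). Nearest to miR-27a were miR-21 (0.159), miR-125b-5p (0.182) and miR-100 (0.255). For both miR-23b and miR-27b they were miR-652, miR-125a-5p and miR-1904, at 0.203, 0.206 and 0.223 from miR-23b and 0.162, 0.151 and 0.170 from miR-27b. For miR-24 they were miR-709 (0.0443), miR-30d (0.122) and miR-148a (0.127). The a cluster thus had miR-21 and miR-125b-5p as near neighbours for both of its members, and the b cluster shared all 3 of its neighbours between its own. Since miR-23b and miR-27b lay only 0.0675 apart, nearer than any of these neighbours, the sharing adds nothing to that nearness. By title miR-652, miR-125a-5p and miR-1904 differed by 0.22, 0.21 and 0.15, against 0.51 for miR-23b and 0.46 for miR-27b.

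**Figure D5:**
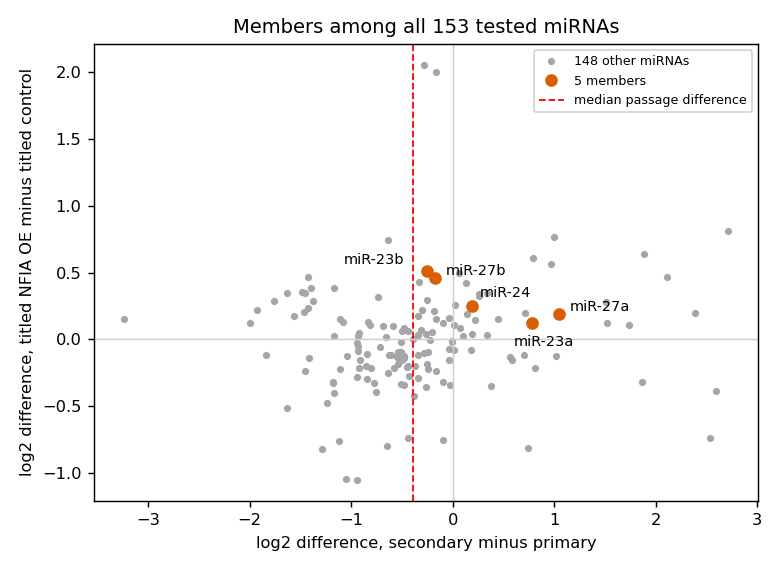
Log2 title difference (vertical axis) against log2 passage difference (horizontal axis) for 153 miRNAs, with the 5 members in orange and the median passage difference of -0.39 as a red line. miR-23a and miR-27a lie to the right, and miR-23b and miR-27b lie together nearer the median and higher up, at 0.51 and 0.46.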

How the data were processed

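One-colour (Cy3) Agilent mouse miRNA arrays were read. The 4 shared 1 slide by their header barcodes, and place on it cannot be told apart from group. Per the file headers, Feature Extraction 10.5.1.1 gave the deposited intensity of each spot, linear, spatially detrended, background-subtracted and unscaled. A further table deposited by the authors holds 1 signal per miRNA, equal to the scanner's total signal divided by 1 constant per array (20.3, 34.1, 33.7 and 31.0), with no log; its column medians were 0.882, 0.830, 0.700 and 0.816.

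Spots flagged as outliers were dropped and the rest averaged per probe. Detection of a probe required 50% or more of its spots well above background. Arrays were divided by their 75th percentile over probes detected on all 4, then log2-transformed, and those probes were averaged per miRNA. limma 3.58.1 in R 4.3.3 fitted title and passage together, with 1 residual degree of freedom per miRNA; the prior was infinite, so all shared 1 pooled SD of 0.29. Calls needed a Benjamini-Hochberg adjusted p under 0.05. The fit was tested on simulated data in which every miRNA had the same SD of 0.29. That test could not show how unequal spread between miRNAs would change the calls.

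The labels carry no replicate numbers. Members and lists were chosen with earlier results of these data known. Named miRNAs were the 5 members, their partner strands, fixed seed, astrocyte and marker lists, and the 3 nearest patterns per member. Alternatives varied scaling, background, filter, probe summary, table, design and the arrays used. The arrays' small number limits precision.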

Additional observations from a re-analysis of the deposited data

Results flagged for a closer look

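For miR-23a and miR-27a the title difference had opposite signs in the passages. miR-23a stood at 0.34 at passage 0 and -0.087 at passage 1, and miR-27a at 0.48 and -0.10. These differences between passages were not tested, and each rests on 1 array per group.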

How the results depend on the processing

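Over 11 alternatives that kept all arrays miR-23a was called by passage in 8 and miR-27a in 9. With normexp background correction, which adds an offset of 50 units, both were at 0.41 and not called. With detection on at least 1 array miR-23a kept 0.78 (adjusted p = 0.0682), and with no filter neither it nor miR-27a (1.05) was called (0.338 and 0.341). In that last fit 369 of 650 miRNAs (56.8%) had a residual variance of 0, and the cause of the lost calls was not tested. miR-24 was called at 0.84 with the authors' values. The miR-23b passage difference turned to 0.50 with the percentile over all probes, 0.70 without scaling, 0.39 with the authors' values and 0.14 relative to the median miRNA, a setting chosen after seeing the data. miR-27b turned to 0.57, 0.77, 0.49 and 0.21 there, 0.027 with median centring and 0.10 with quantile normalization. By title miR-23a turned to -0.0030 with median centring and -0.0014 with the authors' values, and miR-27a to -0.022 with normexp. The cause of these shifts was not tested. Counts called by passage fell from 70 to 30 with the percentile over all probes, 38 with quantile normalization, 21 without scaling and 7 with no filter. By title the 4 became 2 with the percentile over all probes and without scaling, 7 with median centring, 0 with quantile normalization (7 at an unadjusted p under 0.05), 0 with detection on at least 1 array (16) and 1 with no filter. Without the replicate block, that is with no passage term in the title fit or title term in the passage fit, limma called 61 by passage and 0 by title (2 unadjusted), and no member's call changed. The miR-27 ratio change by passage was 0.71 with normexp. Leaving out 1 array leaves a single pair and no test. The miR-23 ratio change by passage was then 0.66 to 1.41 and by title -0.76 to -0.013, and that of miR-27 0.88 to 1.57 and -0.62 to 0.080. Signal near background limits the partner strands and the second miR-27b probe.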
